A study of Solanum lycopersicum with 18 samples.

Results

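The elongation zone of wild-type (WT) tomato roots was set against the WT meristem, using 6 of the 18 RNA-seq libraries of the series. These were the 3 WT elongation zone and the 3 WT meristem libraries, chosen by their labels alone. All came from 7-day-old seedlings of Solanum lycopersicum, cultivar Ailsa Craig, grown on agar medium with sucrose, and a replicate pooled 50 to 100 root portions. The elongation zone portion ran from the upper border of the meristem to the first bulging root hairs, and the meristem portion was the opaque tip below that border. Borders were judged by eye, and a portion holds every cell type of the root at that height, so fewer cells of a type and less RNA per cell cannot be told apart. The other libraries served only to place these values: the WT differentiation zone, and the elongation zone and meristem of dgt1-1 (dgt), an auxin-resistant mutant in the Ailsa Craig background, each with 3 libraries.

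Root cells divide in the meristem, leave it at its upper border and then lengthen greatly without dividing. Cyclins switch on the cyclin-dependent kinases that drive division, and the anaphase-promoting complex ends it by marking mitotic cyclins for degradation. Lengthening depends on water entry into the vacuole through aquaporins, while expansins, xyloglucan endotransglucosylases and acidification by plasma membrane proton pumps loosen the wall, and auxin, cytokinin, gibberellin, brassinosteroid and ethylene all influence where one zone passes into the next.

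Expected counts summed to between 18032826 and 19900854 in the elongation zone libraries and to between 17919441 and 29133603 in the meristem libraries. One library, replicate 2 of the WT meristem, differed from the rest. Across genes, its log2 CPM (counts scaled to library size) correlated with those of the other meristem libraries at 0.955 and 0.958, against 0.990 between those libraries and 0.978 to 0.989 among the elongation zone libraries. Its deviation followed transcript length: set against the other meristem libraries it was 0.54 higher on the log2 scale at the median of the 2352 genes with transcripts under 1000 bases, and its median deviation was -1.05 for the 2150 genes of 3000 bases and over. Elongation zone replicate 1 had a smaller trend of the same kind, with medians of 0.27 and -0.25. Nuclear photosynthesis genes, listed for possible carry-over of shoot tissue, summed to 158 TPM (transcript levels scaled for length and depth) in meristem replicate 2. They summed to 44.5 and 79.9 TPM in the other meristem libraries and 56.0 to 82.4 TPM in the elongation zone. In the WT differentiation zone libraries they summed to 237 to 283 TPM, and whether shoot tissue was present was not tested. The part of the length trends and of these genes in the differences given here was not tested. Values without meristem replicate 2 are given where they change a call of a named gene or move a count by more than 1.5 times.

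**Figure D1:**
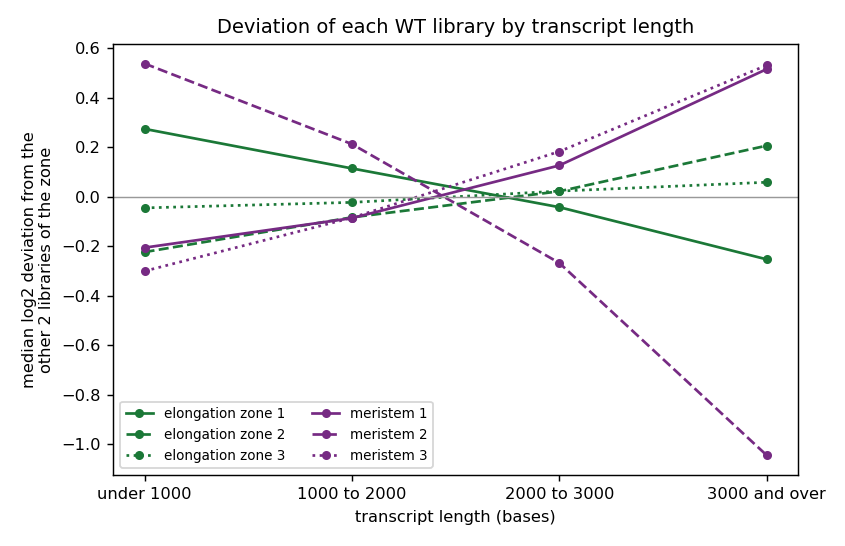
Median log2 deviation of each WT library from the mean of the other 2 libraries of its zone (vertical axis), by transcript length in bases (horizontal axis), for genes tested. Meristem replicate 2 runs from 0.54 for short to -1.05 for long transcripts, the widest span of the 6 libraries, and it also enters the baseline of the other meristem libraries.

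Of 29922 genes, 19671 had enough counts to be tested with edgeR's quasi-likelihood test. A gene was called when its Benjamini-Hochberg adjusted p was under 0.05 and its fold over 2. Against the meristem, 5191 genes were higher in the elongation zone (26.4%) and 5113 lower (26.0%), together 52.4% of genes tested, with a median log2 fold change of 0.01. At any fold, 13031 genes passed the adjusted p (66.2%). The ranges of the 3 libraries of each zone did not overlap for 72.2% of the genes tested, so a large part of the transcriptome separated the zones. Large rises outnumbered large falls, with 719 called genes above a log2 fold change of 5 and 115 below -5. Without meristem replicate 2, 5308 genes were higher (26.4%) and 5473 lower (27.2%), and for genes of 3000 bases and over the median log2 fold change was -0.17, against 0.11 with that library. For genes under 1000 bases the median was -0.16 without meristem replicate 2 and -0.31 with it.

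**Figure D2:**
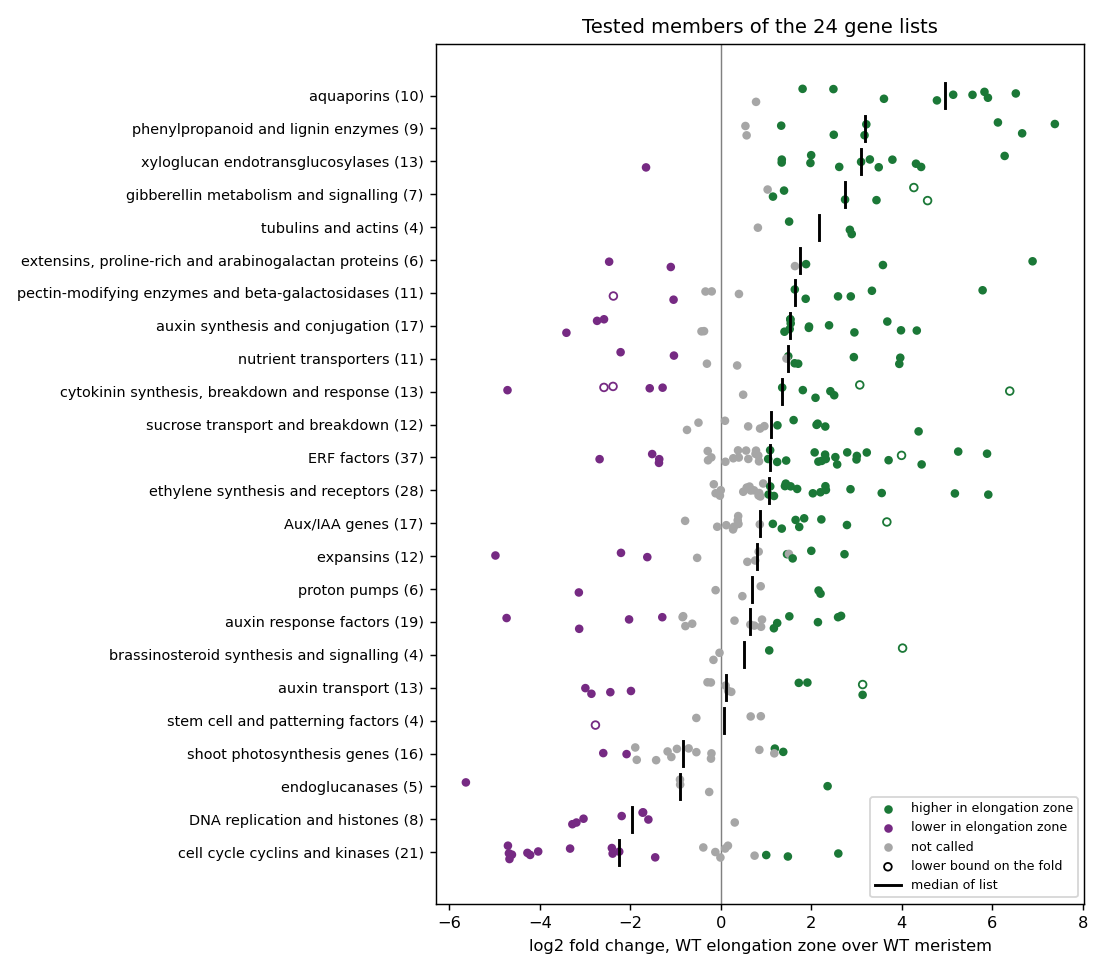
Log2 fold change of the elongation zone over the meristem (horizontal axis) for each tested member of 24 gene lists, with the number tested in brackets. Each point is a gene and each bar the median of its list, from 4.96 for aquaporins to -2.25 for cell cycle genes; open points are lower bounds for genes at or under 3 counts in all 3 libraries of 1 zone.

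Genes of cell division matched the zone labels. Of the 21 cell cycle genes, all of them tested, 12 were lower in the elongation zone and 3 higher, with a median log2 fold change of -2.25 beside 0.01 over all genes tested. The mitotic cyclin CYCB1-2 (LOC101248926) had 96.5, 85.8 and 95.9 normalized counts in the elongation zone libraries, against 2259, 2831 and 2064 in the meristem libraries (log2 fold change -4.68 ± 0.21, SE, adjusted p = 1.8e-06). Every elongation zone library lay far below every meristem library for this gene. The A-type cyclin CycA1 had 48.3, 47.6 and 38.8 in elongation zone libraries and 1335, 813 and 1369 in meristem libraries (-4.71 ± 0.28, SE, adjusted p = 4.6e-06). Normalized counts of cdkB2, a kinase specific to plants and to mitosis, were 84.4, 115 and 106 in elongation zone libraries and 2723, 2169 and 2615 in meristem libraries (-4.62 ± 0.21, SE, adjusted p = 2e-06). For cdc20-1, an activator of the anaphase-promoting complex, they were 67.0, 97.2 and 115 in elongation zone libraries and 2799.7, 1851 and 2507 in meristem libraries (-4.67 ± 0.28, SE, adjusted p = 5e-06). These 4 genes fell by more than 4 on the log2 scale, and the rule that named them required zones without overlap. Among members picked out after their values were seen, the D-type cyclin cycd3c3 had 0.63 to 1.31 TPM in the elongation zone and 16.9 to 17.8 TPM in the meristem. The kinase gene cdkB1 had 12.5 to 16.3 TPM and 65.9 to 67.7 TPM in the same order. D-type cyclins and cdkB kinases thus each included larger and smaller falls. Against the 4 genes above, cycD3, a D-type cyclin that acts in G1, fell less. It had 1872, 1504 and 1579 normalized counts in the elongation zone libraries, against 7396, 11828 and 7077 in the meristem libraries (-2.41 ± 0.25, SE, adjusted p = 7.2e-05), and stayed the most abundant cyclin of the list in both zones at 70.3 ± 0.609 TPM in the elongation zone and 353 ± 55.3 TPM in the meristem (SD, n = 3 each).

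The 3 members that rose were ccs52A, krp3 and cycd3c2, named here because they were few and after their values were seen. ccs52A, an activator of the anaphase-promoting complex known for its part in endoreduplication, had 2123, 1556 and 1696 normalized counts in the elongation zone libraries, against 296, 318 and 273 in the meristem libraries (2.60 ± 0.19, SE, adjusted p = 1.1e-05). Its relative ccs52B moved the other way, with 59.0, 53.8 and 59.3 in elongation zone libraries and 1062, 813 and 951 in meristem libraries (-4.04 ± 0.20, SE, adjusted p = 2.4e-06). krp3, an inhibitor of cyclin-dependent kinases, had 694, 759 and 724 in elongation zone libraries and 248, 274 and 257 in meristem libraries (1.48 ± 0.16, SE, adjusted p = 7.3e-05), and cycd3c2, a D-type cyclin, had 402, 449 and 368 in elongation zone libraries and 154, 224 and 229 in meristem libraries (1.00 ± 0.21, SE, adjusted p = 0.003). The A-type kinase gene SICDKA1 had 1750.4, 1108 and 1255 in elongation zone libraries and 1557, 2062 and 1757 in meristem libraries, ranges that overlapped (-0.39 ± 0.22, SE, adjusted p = 0.15). CycA2 was called lower (-1.45 ± 0.46, SE, adjusted p = 0.022), yet meristem replicate 2, at 236 normalized counts, lay within the elongation zone range of 190.3 to 265; without that library its log2 fold change was -1.85.

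Genes of DNA replication and chromatin followed those of division. Of 8 members, 7 were lower in the elongation zone and none higher, with a median log2 fold change of -1.96. HTA6, a histone H2A, had 3884, 3829 and 4221 normalized counts in the elongation zone libraries, against 17537, 21583 and 15368 in the meristem libraries (-2.19 ± 0.21, SE, adjusted p = 4.5e-05). The sliding clamp gene pcna had 679.5, 454 and 517 in elongation zone libraries and 4173, 7868 and 3998 in meristem libraries (-3.28 ± 0.33, SE, adjusted p = 5.3e-05), and H2B-2, a histone H2B, had 1999.7, 1678 and 2104 in elongation zone libraries and 5109, 8643 and 5252 in meristem libraries (-1.72 ± 0.25, SE, adjusted p = 0.00043). In all 3, the lowest meristem library exceeded the highest elongation zone library, as the naming rule required of genes that fell. The member that was not called, the linker histone H1, had 8649, 7142 and 6936 in elongation zone libraries and 5791, 6969.9 and 5589 in meristem libraries (0.31 ± 0.19, SE, adjusted p = 0.19). Summed over the list, elongation zone libraries held 1345 to 1508 TPM and meristem libraries 3830 to 4525 TPM. The sums over the cell cycle list were 395 to 421 TPM for the elongation zone and 1013 to 1099.7 TPM for the meristem.

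**Figure D3:**
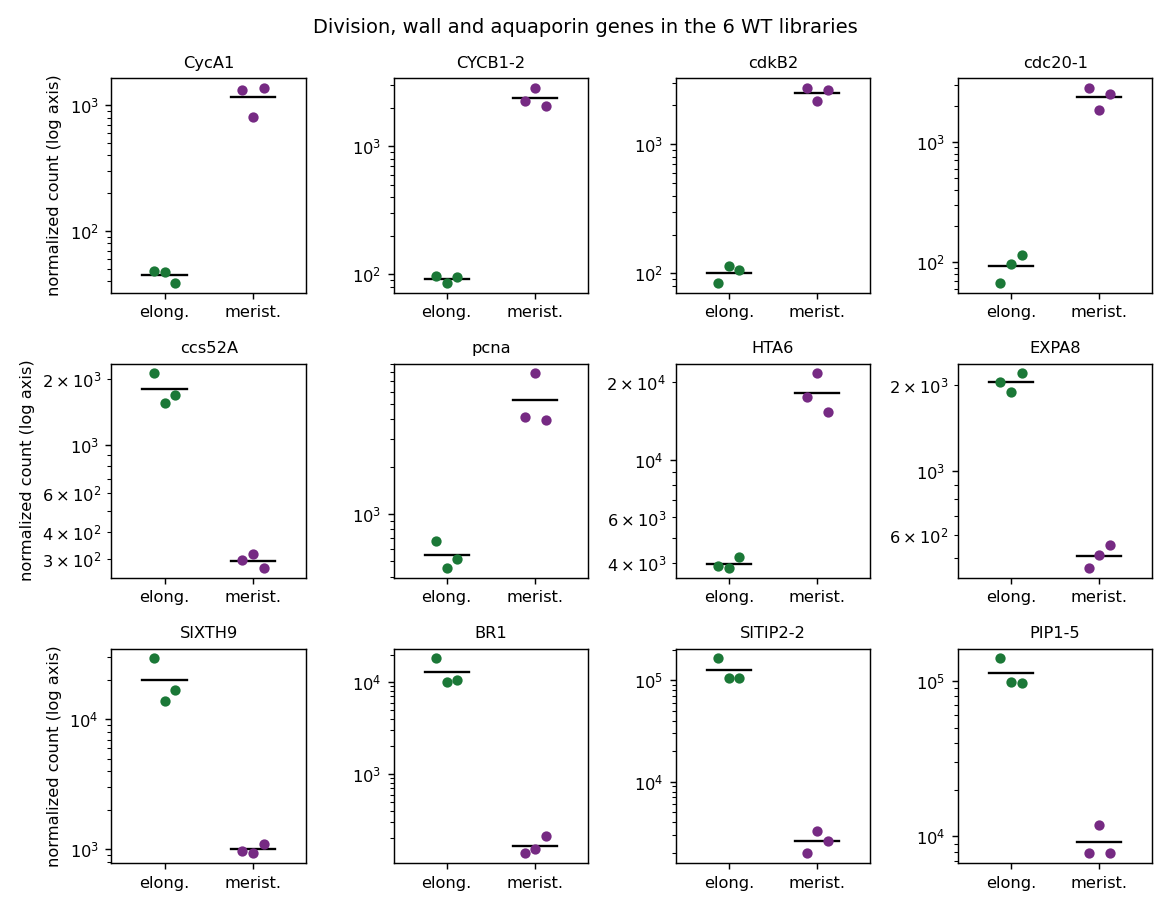
Normalized counts (vertical log axis) of 12 genes in each of the 3 elongation zone libraries (left) and 3 meristem libraries (right); bars are means. No gene shown has overlapping zones. All but ccs52A, picked after its values were seen, were named by a rule that requires this. ccs52A, EXPA8, SlXTH9, BR1, SlTIP2-2 and PIP1-5 are higher in the elongation zone, and CycA1, CYCB1-2, cdkB2, cdc20-1, pcna and HTA6 are lower.

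Xyloglucan endotransglucosylases, which cut and rejoin the xyloglucan that ties cellulose microfibrils together, rose almost as a family. Of 14 members 13 could be tested. Of these, 12 were higher in the elongation zone and 1 was lower, with a median log2 fold change of 3.10. LOC101261784 (SlXTH9) had 29422, 13834 and 16786 normalized counts in the elongation zone libraries, against 977, 935 and 1106 in the meristem libraries (4.31 ± 0.34, SE, adjusted p = 1.5e-05). LOC543637, also named BR1, had 18136, 10025 and 10559.8 in elongation zone libraries and 138, 152 and 211 in meristem libraries (6.27 ± 0.36, SE, adjusted p = 4.2e-06), the largest rise of the list. In both genes elongation zone replicate 1 was the highest library, and no meristem library came near the elongation zone range. XTH16 was already abundant in the meristem and rose by less, with 13325, 10268 and 8950.4 in elongation zone libraries and 4008, 4662 and 4111 in meristem libraries (1.35 ± 0.21, SE, adjusted p = 0.00064). XTH1 had 6999, 4423 and 5194 in elongation zone libraries and 1224, 1791 and 1144 in meristem libraries (2.00 ± 0.26, SE, adjusted p = 0.00022). XET4 was the exception, with 107, 68.3 and 98.1 in elongation zone libraries and 280.1, 264 and 315 in meristem libraries (-1.65 ± 0.22, SE, adjusted p = 0.00026), and is named after its values were seen. Together the list gave 3265 to 4196 TPM in the elongation zone and 446 to 512 TPM in the meristem.

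Expansins, which loosen walls without cutting them, included members higher in each zone. In the elongation zone 4 of 12 tested members rose and 3 fell, with a median log2 fold change of 0.80. Over all genes tested 26.4% were higher and 26.0% lower, so these counts do not set the family apart. exp11 had 5422, 2822 and 3428 normalized counts in the elongation zone libraries, against 949, 1754 and 1175 in the meristem libraries (1.59 ± 0.32, SE, adjusted p = 0.0024). EXPA8 had 2037, 1883 and 2192 in elongation zone libraries and 462, 513 and 553 in meristem libraries (2.00 ± 0.17, SE, adjusted p = 2e-05). On the meristem side, EXPA6 had 285, 199 and 215 in elongation zone libraries and 699, 918 and 533 in meristem libraries (-1.62 ± 0.25, SE, adjusted p = 0.0006), EXPA4 had 115, 83.8 and 73.3 in elongation zone libraries and 351, 545 and 357 in meristem libraries (-2.21 ± 0.27, SE, adjusted p = 0.00015), and exp18 had 5.36, 5.17 and 6.47 in elongation zone libraries and 159, 198 and 192 in meristem libraries (-4.98 ± 0.27, SE, adjusted p = 3.5e-06). Each of these 5 separated the zones without overlap, as the rule that named them required. EXPA10 (1.46) and EXPB2 (2.73) were the other members that rose. Without meristem replicate 2, 6 expansins were called higher, the added members being EXP1 and exp9 at 2.55 and 1.00. The summed TPM of all 13 expansins was 399.7 to 441 in the elongation zone and 209 to 238 in the meristem.

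Of 5 tested endoglucanases, which cut glucan chains of the wall, 1 rose and 1 fell, beside 26.4% higher and 26.0% lower over all genes tested. Without elongation zone replicate 2, 3 fell. Cel3 had 8872, 8459 and 8368 normalized counts in the elongation zone libraries, against 2106, 694 and 2206 in the meristem libraries (2.36 ± 0.41, SE, adjusted p = 0.0011), with meristem replicate 2 the lowest library, and cel7 had 36.2, 34.1 and 39.9 in elongation zone libraries and 2017, 1563 and 1912 in meristem libraries (-5.63 ± 0.21, SE, adjusted p = 1.4e-06). Among pectin-modifying enzymes and beta-galactosidases, 6 of 11 tested members were higher and 2 lower, with a median log2 fold change of 1.64. The count of lower members was 1 without elongation zone replicate 1, meristem replicate 1 or meristem replicate 3, and 9 of the 20 members had too few counts to test. tEG3, a beta-galactosidase also called TBG4, had 2858, 3191 and 2179 in elongation zone libraries and 33.4, 58.2 and 57.1 in meristem libraries (5.79 ± 0.30, SE, adjusted p = 2.9e-06). A second beta-galactosidase, TBG3, had 5166, 5756 and 5804 in elongation zone libraries and 559, 456 and 637 in meristem libraries (3.34 ± 0.20, SE, adjusted p = 4.8e-06), and the pectin methylesterase PMEU1 had 26066, 13779.8 and 15894 in elongation zone libraries and 2700.3, 3540.2 and 3009.6 in meristem libraries (2.59 ± 0.29, SE, adjusted p = 0.0001). The members that were lower, named after their values were seen, were the beta-galactosidase TBG6 and the polygalacturonase TAPG4. TAPG4 had 1.34, 1.03 and 0 in elongation zone libraries and 17.2, 20.1 and 15.4 in meristem libraries, at least 5.18-fold lower in the elongation zone. For TBG6 the values were 1159, 1589 and 1393 in elongation zone libraries and 3474, 1425 and 3646 in meristem libraries (-1.04 ± 0.34, SE, adjusted p = 0.026), and meristem replicate 2 overlapped the elongation zone.

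Structural wall proteins gave 3 rises and 2 falls among 6 members. The extensin gene ext1 was nearly absent from the meristem, with 403, 364 and 636 normalized counts in the elongation zone libraries, against 4.52, 5.22 and 1.10 in the meristem libraries (6.89 ± 0.43, SE, adjusted p = 5.8e-06). AGP-1, an arabinogalactan protein, had 22673, 13355 and 14167 in elongation zone libraries and 2105, 807 and 1276 in meristem libraries (3.58 ± 0.41, SE, adjusted p = 0.00011), and the proline-rich protein TPRP-F1 had 23903, 16187 and 12309 in elongation zone libraries and 6242, 3045 and 4910.0 in meristem libraries (1.88 ± 0.35, SE, adjusted p = 0.0015). The glycine-rich protein gene GRP1 was lower, with 2453, 2059 and 2759 in elongation zone libraries and 11921, 18397 and 9908 in meristem libraries (-2.47 ± 0.28, SE, adjusted p = 0.00011), and so was LOC101262262, which carries the same synonym (-1.11 ± 0.22, SE, adjusted p = 0.0022).

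Aquaporins, the water channels of the plasma membrane (PIP) and the tonoplast (TIP), had the highest median of the 24 lists, at 4.96. Of 11 members 10 were tested, 9 were higher in the elongation zone and none was lower. SlTIP2-2, a tonoplast aquaporin, had 163429, 103706 and 105999 normalized counts in the elongation zone libraries, against 1977, 3281 and 2632 in the meristem libraries (5.56 ± 0.38, SE, adjusted p = 8.3e-06). Its level was 7451 ± 1063 TPM in the elongation zone and 152 ± 25.7 TPM in the meristem (SD, n = 3 each), the largest rise in TPM of any called gene whose zones did not overlap. PIP1-5 had 139196, 98146 and 97179 in elongation zone libraries and 7863, 11797 and 7808 in meristem libraries (3.61 ± 0.33, SE, adjusted p = 3.2e-05), and the gene named aquaporin (LePIP1) had 56826, 35035 and 39744 in elongation zone libraries and 1201, 1358 and 1182 in meristem libraries (5.14 ± 0.30, SE, adjusted p = 4.3e-06). LOC100736527 (PIP2-9) was the aquaporin with the most normalized counts in the meristem after PIP1-5, and it too rose, with 71181, 36824 and 44359.6 in elongation zone libraries and 7728, 11008 and 8398 in meristem libraries (2.49 ± 0.32, SE, adjusted p = 0.00022). Elongation zone replicate 1 was the highest library for all 4. All 11 members together took 23042 to 28166 TPM in the elongation zone and 1297 to 1504 TPM in the meristem.

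Of 6 proton pumps 2 were higher and 1 lower, beside 26.4% higher and 26.0% lower over all genes tested. The plasma membrane proton ATPases LHA4 and LHA2 rose by similar amounts. LHA4 had 88498, 90060.3 and 77863 normalized counts in the elongation zone libraries, against 20021, 16662 and 20646 in the meristem libraries (2.16 ± 0.25, SE, adjusted p = 0.00011), and LHA2 had 27294, 16136 and 19616 in elongation zone libraries and 5112, 2824 and 5744 in meristem libraries (2.20 ± 0.33, SE, adjusted p = 0.00052). SlVP2, a proton-pumping pyrophosphatase by its name, fell, with 689, 633 and 804 in elongation zone libraries and 6759, 5083 and 6872 in meristem libraries (-3.14 ± 0.21, SE, adjusted p = 7.4e-06). The pyrophosphatase gene vp1.1 had 12649.8, 13124 and 16537 in elongation zone libraries and 20918, 4429.8 and 20472 in meristem libraries and was not called, with meristem replicate 2 below and the other meristem libraries above every elongation zone library.

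Cytoskeleton genes rose in 3 of 4 cases, with a median log2 fold change of 2.18. The tubulin gene TUB had 56169.7, 36089 and 41942 normalized counts in the elongation zone libraries, against 13781, 18626 and 14711 in the meristem libraries (1.51 ± 0.27, SE, adjusted p = 0.0012), the actin gene Tom52 had 21544, 15408 and 18596 in elongation zone libraries and 2434, 2731 and 2525 in meristem libraries (2.85 ± 0.22, SE, adjusted p = 1.3e-05), and actin had 21011, 12367 and 15317 in elongation zone libraries and 2879, 1455 and 2216 in meristem libraries (2.89 ± 0.33, SE, adjusted p = 0.0001). Among 12 genes of sucrose transport and breakdown, 6 were higher and none lower. LeSUT1, the phloem sucrose transporter, had 8581, 5981 and 4296 in elongation zone libraries and 315, 207 and 389.5 in meristem libraries (4.37 ± 0.36, SE, adjusted p = 1.9e-05). The invertase genes lin9 and LIN8, whose enzymes split sucrose, also rose, but not every invertase gene did. Wiv-1 (LIN6), picked out after its values were seen, had 85.4 to 94.5 TPM in the elongation zone and 138 to 150 TPM in the meristem. LIN7 had 1.78 to 2.09 TPM and 2.46 to 2.59 TPM in the same order, and neither of them was called. lin9 had 7057, 7004 and 8234 in elongation zone libraries and 1782, 1267 and 2006 in meristem libraries (2.14 ± 0.22, SE, adjusted p = 6.6e-05), and LIN8 had 8890.3, 5487 and 7419.7 in elongation zone libraries and 1476, 1478 and 1443 in meristem libraries (2.31 ± 0.22, SE, adjusted p = 4.1e-05). SUS4, a sucrose synthase, was called at 1.25 and was not called without meristem replicate 2 (0.94) or elongation zone replicate 2 (0.98).

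Aux/IAA genes encode the repressors that auxin removes, and auxin itself induces many of them. Of 17 tested members 8 were higher in the elongation zone and none lower, with a median log2 fold change of 0.86. SlIAA16 had 17271, 10619.5 and 11319.8 normalized counts in the elongation zone libraries, against 3151, 4396 and 3385 in the meristem libraries (1.84 ± 0.26, SE, adjusted p = 0.00035). IAA7 had 2100.3, 1856 and 1821 in elongation zone libraries and 363, 428 and 447 in meristem libraries (2.22 ± 0.17, SE, adjusted p = 1.4e-05), and SlIAA27 had 639, 617 and 579 in elongation zone libraries and 151, 241 and 191 in meristem libraries (1.65 ± 0.21, SE, adjusted p = 0.0002). Zones did not overlap in these 3, as the naming rule required. LOC101055552 (IAA26) was called at 1.15 and was not called without meristem replicate 1 (0.93), and 1 member was called lower without meristem replicate 1 or 3. Members that were not called included SlIAA9, abundant in both zones, which had 9744, 9154 and 9317 in elongation zone libraries and 6780.0, 7979 and 6771 in meristem libraries (0.39 ± 0.18, SE, adjusted p = 0.082), and IAA3 had 97.8, 131 and 129 in elongation zone libraries and 117, 131 and 132 in meristem libraries (-0.08 ± 0.20, SE, adjusted p = 0.74).

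The auxin response factors, which bind auxin-regulated promoters, included members on both sides, 6 higher and 4 lower of 19 tested, with a median log2 fold change of 0.65. Over all genes tested 26.4% were higher and 26.0% lower, so the counts do not set this family apart. ARF5 had one of the largest falls of any gene with a symbol, with 33.5, 27.9 and 23.7 normalized counts in the elongation zone libraries, against 752, 655 and 859 in the meristem libraries (-4.73 ± 0.23, SE, adjusted p = 2.3e-06). In Arabidopsis this factor, MONOPTEROS, acts in embryonic root and vascular patterning. ARF19-1 and ARF19 rose. ARF19-1 had 2642, 2749.8 and 2735 in elongation zone libraries and 551, 212 and 587 in meristem libraries (2.59 ± 0.36, SE, adjusted p = 0.00034), and ARF19 had 814, 1000 and 861 in elongation zone libraries and 186, 72.3 and 167 in meristem libraries (2.66 ± 0.34, SE, adjusted p = 0.00021). Both were lowest in meristem replicate 2. ARF2 had 751, 958 and 888 in elongation zone libraries and 319, 205 and 386 in meristem libraries (1.51 ± 0.25, SE, adjusted p = 0.00089). The other members that fell, named after their values were seen, were ARF16 (-3.13), ARF17 (-2.03) and LOC100301945 (-1.29). Without meristem replicate 2 the counts turned to 4 higher and 6 lower: ARF12 and LOC100191131 (ARF7), both at 0.90, lost their calls, and ARF6 (-1.23) and ARF8-1 (-1.12) gained one. ARF6 had 531, 509 and 417 in elongation zone libraries and 1094, 245 and 1169.6 in meristem libraries, with meristem replicate 2 alone below the elongation zone.

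Of 13 tested auxin transporters 4 were higher and 4 lower, with a median log2 fold change of 0.10. These counts stood beside 26.4% higher and 26.0% lower over all genes tested and do not set the group apart. The efflux carrier gene PIN2 had 824, 715 and 675 normalized counts in the elongation zone libraries, against 2954, 2893 and 2919.7 in the meristem libraries (-1.99 ± 0.16, SE, adjusted p = 1.9e-05), and SlPIN1 (LOC100527965) had 237, 336 and 315 in elongation zone libraries and 1567, 1405 and 1859.8 in meristem libraries (-2.44 ± 0.21, SE, adjusted p = 2.3e-05). Among influx carriers, SlLAX3 (LOC100736478) rose, with 2746, 3101 and 2824 in elongation zone libraries and 763, 724 and 814 in meristem libraries (1.91 ± 0.16, SE, adjusted p = 2e-05), while SlLAX2 (LOC100736477) fell, with 49.6, 64.1 and 60.4 in elongation zone libraries and 566, 136 and 569 in meristem libraries (-2.86 ± 0.52, SE, adjusted p = 0.0014). The remaining called members, given after their values were seen, were PIN3 at 3.13 ± 0.22, SE, adjusted p = 9.3e-06, PIN7 at 1.72 ± 0.19, SE, adjusted p = 7.9e-05, PIN10 at -2.99 ± 0.43, SE, adjusted p = 0.00037 and PIN5. PIN5 had 24.1, 30.0 and 19.4 in elongation zone libraries and 0.903, 0 and 1.10 in meristem libraries, at least 8.79-fold higher against a floor of 3 counts per library.

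Genes that make or inactivate auxin were higher in the elongation zone for 12 of 17 tested members and lower for 3, with a median log2 fold change of 1.54. Only 7 were higher when at least 50 counts in 3 libraries were required, or with limma on TPM. The GH3 enzymes, which join auxin to amino acids, supplied the called members with the most counts. LOC101258198 (GH3-7) had 2075, 1547 and 1633 normalized counts in the elongation zone libraries, against 174, 52.2 and 185 in the meristem libraries (3.68 ± 0.45, SE, adjusted p = 0.00016), and LOC101246970 (GH3.2) had 1126, 1194 and 999 in elongation zone libraries and 189, 219 and 224 in meristem libraries (2.39 ± 0.17, SE, adjusted p = 1.1e-05). In the other direction, besides LOC101251833 (GH3-4) and LOC101264094 (GH3-15), LOC101262636 (GH3-9) had 232, 188 and 170.3 in elongation zone libraries and 957, 1699.6 and 1271 in meristem libraries (-2.73 ± 0.26, SE, adjusted p = 4e-05). The FZY genes encode flavin monooxygenases of auxin synthesis, and 4 of the 5 tested rose. These were FZY2, FZY4, FZY5 and FZY6, of which FZY5, named after its values were seen, had 525, 463 and 365 in elongation zone libraries and 23.5, 18.6 and 25.2 in meristem libraries (4.33 ± 0.24, SE, adjusted p = 4e-06).

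Cytokinin genes changed in both directions, 7 higher and 5 lower of 13 tested, with a median log2 fold change of 1.36. The cytokinin oxidase gene SlCKX3, whose enzyme breaks cytokinin down, had 28.1, 51.7 and 18.3 normalized counts in the elongation zone libraries, against 682, 1129.8 and 791 in the meristem libraries (-4.71 ± 0.40, SE, adjusted p = 2.3e-05). Of the isopentenyltransferases, which make cytokinin, SlIPT2 rose with 109, 75.5 and 51.7 in elongation zone libraries and 17.2, 24.6 and 12.1 in meristem libraries (2.09 ± 0.38, SE, adjusted p = 0.0015) and SlIPT5 fell with 60.3, 68.3 and 67.9 in elongation zone libraries and 166, 198 and 115 in meristem libraries (-1.29 ± 0.25, SE, adjusted p = 0.002). SlIPT4, named after its values were seen, had 276, 254 and 169 in elongation zone libraries and 0, 0 and 2.19 in meristem libraries, at least 83.7-fold higher. The LOG enzymes, which activate cytokinin, were divided too. LOG7 had 109.9, 101 and 109 in elongation zone libraries and 27.1, 38.8 and 24.1 in meristem libraries (1.81 ± 0.26, SE, adjusted p = 0.00035), whereas LOG8 had 0, 0 and 0 in elongation zone libraries and 12.6, 26.8 and 13.2 in meristem libraries, at least 5.21-fold lower. LOG6 and SlCKX1 (-1.57) were the other members that fell. When at least 50 counts in 3 libraries were required, 2 members were higher and 2 lower.

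Gibberellin genes rose in 6 of 7 tested members, with a median log2 fold change of 2.75, while 7 of the 14 had too few counts to test. GAI, the DELLA repressor of gibberellin response, had 3415, 3527 and 3404 normalized counts in the elongation zone libraries, against 1609, 632 and 1688 in the meristem libraries (1.40 ± 0.34, SE, adjusted p = 0.007), with meristem replicate 2 the lowest library. The receptor gene GID1 had 2332, 2174 and 1866 in elongation zone libraries and 802, 1079.9 and 982 in meristem libraries (1.15 ± 0.18, SE, adjusted p = 0.00069); without meristem replicate 1 its log2 fold change was 0.95 and it was not called. GA2ox3, a gibberellin 2-oxidase that inactivates the hormone, had 151, 185 and 149 in elongation zone libraries and 14.5, 20.1 and 8.78 in meristem libraries (3.44 ± 0.31, SE, adjusted p = 3.2e-05), and LOC101248254 (gast1), a gene known to respond to gibberellin, had 177, 179 and 155 in elongation zone libraries and 18.1, 32.1 and 25.2 in meristem libraries (2.75 ± 0.26, SE, adjusted p = 4.1e-05). GA2ox2 and GA2ox5, named after their values were seen, were at or under 3 counts in every meristem library and at least 23.8-fold and 19.2-fold higher in the elongation zone. Of 4 tested brassinosteroid genes 2 rose. CYP90B3, a cytochrome P450 of early brassinosteroid synthesis, had 45.6, 41.4 and 48.5 in elongation zone libraries and 1.81, 0 and 1.10 in meristem libraries, at least 16.2-fold higher. CYP85A1, which acts late in synthesis, had 950.3, 1027 and 934 in elongation zone libraries and 408, 489 and 488 in meristem libraries (1.07 ± 0.16, SE, adjusted p = 0.00052) and lost its call without elongation zone replicate 2 (0.98) or meristem replicate 1 (0.90). The receptor gene CURL3 had 1634, 1964 and 1711 in elongation zone libraries and 1889, 1254 and 2272 in meristem libraries, and its zones overlapped (-0.03 ± 0.23, SE, adjusted p = 0.92).

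Ethylene genes moved in 1 direction where they were called, 15 higher and none lower of 28 tested, with a median log2 fold change of 1.07. Synthesis genes showed the largest values. The ACC oxidase gene ACO4-like had 2296, 1889 and 2214 normalized counts in the elongation zone libraries, against 25.3, 41.0 and 39.5 in the meristem libraries (5.91 ± 0.26, SE, adjusted p = 1.7e-06). For the ACC synthase gene ACS1A, named after its values were seen, the counts were 999, 1403 and 991 in elongation zone libraries and 33.4, 27.6 and 32.9 in meristem libraries (5.17 ± 0.24, SE, adjusted p = 2e-06). Of the signalling genes, EIL1, a transcription factor that acts downstream of EIN2, had 1701, 1469.5 and 1355 in elongation zone libraries and 566, 538 and 590.3 in meristem libraries (1.42 ± 0.16, SE, adjusted p = 0.00012). Among the receptors, ETR4 and LOC101249081 (ETR7) were called at 1.06 and 1.09 and lost the call without meristem replicate 2, ETR4 also without elongation zone replicate 1 or meristem replicate 3. ETR1 had 2177, 1901 and 1667 in elongation zone libraries and 1086, 1160.4 and 1207 in meristem libraries (0.73 ± 0.17, SE, adjusted p = 0.0049) and ETR5 had 519, 625 and 592 in elongation zone libraries and 618, 539 and 602 in meristem libraries (-0.02 ± 0.16, SE, adjusted p = 0.92). EIN2 had 3106, 3637 and 3437 in elongation zone libraries and 3130.3, 928 and 2788 in meristem libraries; meristem replicate 2 alone lay far below the rest, and without it the log2 fold change was 0.19 in place of 0.57, neither of them called.

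ERF factors, a large family that includes the transcription factors at the end of the ethylene pathway, had 20 higher and 4 lower of 37 tested, with a median log2 fold change of 1.09. JERF1 had 11661, 8376 and 8723 normalized counts in the elongation zone libraries, against 1459.9, 2677 and 1679.8 in the meristem libraries (2.31 ± 0.28, SE, adjusted p = 0.00016). DDTFR10/A (SlERF-B1) had 808, 1184 and 995 in elongation zone libraries and 241, 204 and 264 in meristem libraries (2.07 ± 0.21, SE, adjusted p = 5.5e-05), and DREB3 was lower, with 1499.8, 1637 and 1128 in elongation zone libraries and 2956, 3571 and 5679 in meristem libraries (-1.52 ± 0.28, SE, adjusted p = 0.0016). LOC101254925 (ERF-H8) had the largest rise among members above the floor, with 926, 757 and 737 in elongation zone libraries and 10.8, 12.7 and 17.6 in meristem libraries (5.88 ± 0.26, SE, adjusted p = 1.7e-06), and was picked out after its values were seen, as were the other members that fell, DREB1, LOC101259323 and LOC101261693.

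Phenylpropanoid and lignin enzymes rose in 7 of 9 tested members and fell in none, with a median log2 fold change of 3.18. PAL2, a phenylalanine ammonia-lyase at the entry of the pathway, had 47833, 37111 and 33642 normalized counts in the elongation zone libraries, against 725, 329.6 and 645 in the meristem libraries (6.13 ± 0.40, SE, adjusted p = 6.9e-06). PAL5 of the same family rose less, with 8599, 6726 and 6266 in elongation zone libraries and 2730.1, 3026 and 2801 in meristem libraries (1.34 ± 0.19, SE, adjusted p = 0.00037). The ligase gene 4CL had 20208, 14573 and 14914 in elongation zone libraries and 2362, 638 and 2498 in meristem libraries (3.18 ± 0.50, SE, adjusted p = 0.00062), lowest in meristem replicate 2, and the peroxidase gene LOC101250523 (TPX1) had 89872, 80539 and 84382 in elongation zone libraries and 8278, 10159.6 and 8976 in meristem libraries (3.22 ± 0.25, SE, adjusted p = 1.5e-05). CCR1, a cinnamoyl-CoA reductase that leads into lignin, had 1895, 2069 and 1962 in elongation zone libraries and 6.32, 17.2 and 11.0 in meristem libraries (7.38 ± 0.34, SE, adjusted p = 1.8e-06).

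Nutrient transporters were higher in the elongation zone for 6 of 11 tested members and lower for 2, with a median log2 fold change of 1.49. The phosphate transporter PT1 had 9418, 10549 and 8864 normalized counts in the elongation zone libraries, against 2810.5, 2695 and 3305 in the meristem libraries (1.71 ± 0.19, SE, adjusted p = 8.2e-05). The sulfate transporter ST1 had 4154, 3734 and 3122 in elongation zone libraries and 222, 295 and 196 in meristem libraries (3.95 ± 0.23, SE, adjusted p = 4.6e-06). Of the ammonium transporters, AMT1-2 had 1523, 1235 and 1192 in elongation zone libraries and 145, 214 and 154 in meristem libraries (2.94 ± 0.22, SE, adjusted p = 1.3e-05), and LeAMT1;1 had 803, 719 and 705 in elongation zone libraries and 229, 227 and 262 in meristem libraries (1.63 ± 0.17, SE, adjusted p = 5.8e-05). The members that fell, given after their values were seen, were the nitrate transporter NRT2.2 (-2.21 ± 0.28, SE, adjusted p = 0.00017) and ST2 (-1.04 ± 0.26, SE, adjusted p = 0.0075), the second of which was not called without meristem replicate 2 (-0.87). This list also marks mature root tissue: it summed to 489.7 to 635 TPM in the elongation zone and 147 to 203 TPM in the meristem, against 1301 to 1663 TPM in the differentiation zone, and its part in the other differences was not tested.

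Shoot photosynthesis genes were low, and of 16 tested members 2 were higher and 2 lower, which were CAB4 and CAB5. CAB4, a chlorophyll a/b-binding protein, had 69.7, 51.7 and 35.6 normalized counts in the elongation zone libraries, against 183, 539 and 221 in the meristem libraries (-2.60 ± 0.46, SE, adjusted p = 0.0013), with meristem replicate 2 well above its group and a log2 fold change of -1.97 without that library. CAB-10A had 154, 134 and 114 in elongation zone libraries and 38.8, 60.4 and 54.9 in meristem libraries (1.38 ± 0.25, SE, adjusted p = 0.0014). LOC543978 (psaD) had 166, 122 and 142 in elongation zone libraries and 43.4, 79.1 and 64.7 in meristem libraries (1.19 ± 0.27, SE, adjusted p = 0.0046) and lost its call without meristem replicate 1 (0.89). The list turned on single meristem libraries: its median log2 fold change was -0.84 with all 6 libraries and 0.16 without meristem replicate 2, which left 4 members higher and 1 lower, while leaving out meristem replicate 1 gave 1 higher and 11 lower and a fit over all 18 libraries 12 lower. Of 4 tested stem cell and patterning genes, T6, a KNOX homeobox gene also called LeT6, had 2.68, 0 and 3.23 in elongation zone libraries and 13.6, 33.6 and 21.9 in meristem libraries, at least 6.83-fold lower, while the KNOX gene TKn3 had 277, 251 and 248 in elongation zone libraries and 146, 131 and 144 in meristem libraries (0.88 ± 0.17, SE, adjusted p = 0.0019), under the fold threshold.

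Beyond the lists, the named genes with the largest rises included SN2, which encodes a snakin antimicrobial peptide, with 16222, 16906 and 15529 normalized counts in the elongation zone libraries, against 56.0, 40.3 and 61.4 in the meristem libraries (8.27 ± 0.28, SE, adjusted p = 1.4e-06). Dif54 had 5355, 5820.1 and 5539 in elongation zone libraries and 28.9, 23.9 and 27.4 in meristem libraries (7.70 ± 0.22, SE, adjusted p = 1.4e-06). DES, the divinyl ether synthase of the lipoxygenase pathway, had 2915, 1767 and 1923 in elongation zone libraries and 8.13, 12.7 and 19.7 in meristem libraries (7.36 ± 0.38, SE, adjusted p = 2.9e-06), and ME2 had 50499, 38919.5 and 35639 in elongation zone libraries and 335, 431 and 393 in meristem libraries (6.75 ± 0.30, SE, adjusted p = 1.7e-06). In these 4 genes every elongation zone library was far above every meristem library. Genes for tyramine hydroxycinnamoyltransferases, which make hydroxycinnamic acid amides, stood in the same group: THT7-8 had 893, 942 and 714 in elongation zone libraries and 3.61, 8.20 and 4.39 in meristem libraries (7.22 ± 0.32, SE, adjusted p = 1.7e-06), and THT1-3 had 374, 324 and 227 in elongation zone libraries and 4.52, 2.24 and 1.10 in meristem libraries (6.78 ± 0.41, SE, adjusted p = 4.8e-06).

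The largest falls among genes with a symbol were those of ORFX, cel7, yfe37, exp18, cat1, ARF5, SlCKX3 and CycA1. ORFX had 4.02, 10.3 and 6.47 normalized counts in the elongation zone libraries, against 651, 739 and 619 in the meristem libraries (-6.53 ± 0.30, SE, adjusted p = 2e-06). yfe37, also listed under the glutamate decarboxylase symbol GAD3, had 361, 147 and 176 in elongation zone libraries and 9914, 13648 and 6592 in meristem libraries (-5.47 ± 0.46, SE, adjusted p = 2.3e-05). The catalase gene cat1 had 26.8, 33.1 and 23.7 in elongation zone libraries and 117, 1499.7 and 625 in meristem libraries (-4.74 ± 0.86, SE, adjusted p = 0.0014), and its meristem libraries were far apart, so that the log2 fold change was -3.72 without meristem replicate 2 and -5.37 without meristem replicate 1. Genes known only by identifiers reached larger values still. LOC101261698 had 2143, 2547 and 1962 in elongation zone libraries and 5.42, 2.24 and 0 in meristem libraries (9.63 ± 0.50, SE, adjusted p = 2.9e-06), and LOC101252050 had 13.4, 5.17 and 1.08 in elongation zone libraries and 1703, 1415 and 2311 in meristem libraries (-8.17 ± 0.55, SE, adjusted p = 7.4e-06). LOC101256283 and LOC101261998 also rose (9.47 and 9.23), and LOC101258971 and LOC101257608 fell (-7.25 and -7.01). Elongation zone replicate 1 held most of what was left of the LOC genes that fell, whereas ORFX and cat1 were highest in elongation zone replicate 2. Without elongation zone replicate 1 the values were -9.11 for LOC101252050, -9.29 for LOC101258971 and -8.89 for LOC101257608. LOC101261698 was at 10.49 without meristem replicate 1.

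TPM is a share of each library, so changes in TPM are relative and not absolute amounts. Transcripts that lost most TPM included LOC544002 (listed with the synonym GAME11), a dioxygenase of steroidal alkaloid synthesis, at 445 ± 67.9 TPM in the elongation zone and 4015 ± 456 TPM in the meristem (SD, n = 3 each, log2 fold change -3.24). The cyclophilin gene CyP, a peptidyl-prolyl isomerase, was at 1241 ± 305 TPM in the elongation zone and 5076 ± 1185 TPM in the meristem (-2.10). LOC101256568, LOC101249784 and LOC101245356 were the others, with log2 fold changes of -2.63, -1.92 and -2.23. Next to the aquaporins, TPM rose most for LOC778315, at 5896 ± 442 TPM in the elongation zone and 227 ± 78.1 TPM in the meristem (4.68), and LOC101257132, at 5786 ± 653 TPM in elongation zone libraries and 904 ± 42.9 TPM in meristem libraries (2.63).

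Some genes passed between detection limits. 126 genes had at most 3 counts in every meristem library and 50 or more in every elongation zone library, and 25 had the opposite pattern. AADC2, an aromatic amino acid decarboxylase that makes amines such as tyramine, had 339, 540 and 452 expected counts in elongation zone libraries and 1, 3 and 1 in meristem libraries, at least 179-fold higher against a floor of 3 counts per library. LOC101266404 had 948, 1203 and 926 counts in elongation zone libraries and 2, 3 and 0 in meristem libraries, at least 420-fold higher, and LOC101247603 was at least 226-fold higher. In the other direction, LOC101257035, LOC101258259 and LOC101254980 were at least 159.8-fold, 119-fold and 70.3-fold lower in the elongation zone, the last with 0, 0 and 0 counts there and 259, 266 and 260 in the meristem.

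The number of expressed genes did not separate the zones. With a TPM over 2 taken as expressed, 15158, 16201 and 15972 genes were expressed in the elongation zone libraries and 15673, 14526 and 15960 in the meristem libraries, ranges that overlapped. The means differed by 391 genes (15777 for the elongation zone and 15386 for the meristem), with p = 0.5 in a two-sided exact permutation test that cannot give less than 0.1 with 3 libraries against 3, and the difference was -39.5 without meristem replicate 2. By the mean TPM of each zone, 13925 genes were expressed in both zones, 1954 in the elongation zone but not the meristem, and 1681 in the meristem but not the elongation zone.

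The same step was measured in dgt libraries, which share no sample with those of WT. In dgt, 5460 of 21003 genes tested were higher in the elongation zone (26.0%) and 5663 lower (27.0%). The dgt step also followed transcript length, with median log2 fold changes of -0.69 under 1000 bases and 0.45 at 3000 bases and over. How far this trend enters the values shared with WT was not tested. Of the 10304 genes called in WT, 8299 were called in the same direction in dgt and 38 in the opposite direction. Genes called higher in WT had a median log2 fold change of 1.77 in dgt and 2.22 in WT, and genes called lower had -1.95 in dgt and -2.02 in WT. These genes were selected by their WT values, which by itself favours larger changes in WT than in dgt. Aquaporins were higher in 11 of 11 tested members in dgt, xyloglucan endotransglucosylases in 10, and replication and histone genes lower in 7 of 8. Aux/IAA genes differed from this pattern, with 3 higher and 7 lower in dgt beside 8 higher and none lower in WT.

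The difference between the steps was tested as an interaction of genotype and zone, in a fit of 12 libraries with its own scaling. Steps printed for each genotype come from separate fits, so a printed difference need not equal the dgt step minus the WT step. Where 0 lies, and so the counts above and below it, depends on that scaling. It passed an adjusted p of 0.05 for 2474 of 21339 genes (11.6%), of which 1170 lay above 0 as dgt minus WT (5.48%) and 1304 below (6.11%). This count depended on single meristem libraries: it was 6680 without WT meristem replicate 2, 1598 without dgt meristem replicate 1 and 1587 without dgt meristem replicate 3. Among the Aux/IAA genes, 9 of 17 tested had a difference below 0 and none above. SlIAA27 had a log2 step of 0.05 in dgt and 1.65 in WT (difference -1.38, adjusted p = 0.0047), and LOC101055542 (IAA2), picked out after its values were seen, had -1.84 in dgt and 1.35 in WT (-2.97, adjusted p = 0.00013). ARF5 fell less in dgt, at -1.63 beside -4.73 in WT (3.31, adjusted p = 5e-05). The cell cycle list had 6 members with a difference above 0, among them cdkB2, with a step of -3.19 in dgt and -4.62 in WT (1.62, adjusted p = 0.0055). None of the 8 replication and histone genes passed this test.

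Several of the largest WT rises were smaller in dgt, although picking genes by their WT rise favours a larger WT value. LOC543637 (BR1) rose by 3.80 in dgt and 6.27 in WT (-2.27, adjusted p = 0.0024), and tEG3 by 3.31 in dgt and 5.79 in WT (-2.27, adjusted p = 0.00054). THT1-3 rose by 1.42 in dgt and 6.78 in WT (-5.16, adjusted p = 4.3e-05). Its mean level in the elongation zone was 34.8 TPM in dgt and 28.2 TPM in WT. In the meristem it was 9.91 TPM in dgt and 0.24 TPM in WT, so the smaller step lay with the meristem. The smallest p-values of the interaction belonged to LOC101249612, LOC101251913 and LOC109121038, each of which rose by more than 5 in WT. Their WT steps were 8.997, 5.22 and 8.19, beside 3.17, 0.31 and 2.09 in dgt. Photosynthesis genes went the other way: 13 of 24 tested had a difference above 0, and in dgt 14 of 24 tested were higher in the elongation zone and none lower. In WT only 16 members were tested. Their median WT step was -0.84 with all libraries and 0.16 without WT meristem replicate 2, which also enters the interaction test.

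**Figure D4:**
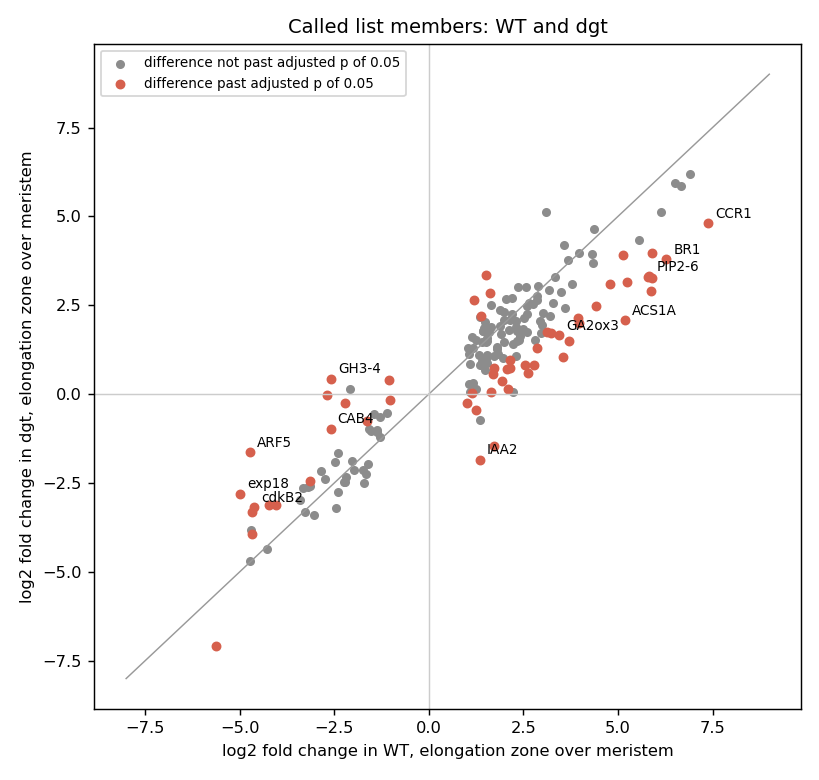
Log2 fold change of the elongation zone over the meristem in WT (horizontal axis) and in dgt (vertical axis) for 183 list members called in WT; 15 called members at or under 3 counts in a zone, or not tested in dgt, are left out. The line marks equal values, and the 56 red points passed the interaction test at an adjusted p of 0.05, among them ARF5, IAA2, BR1 and CCR1.

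Levels in the WT differentiation zone, the next zone of the root, are given without a test because any comparison would share the elongation zone libraries. Of the 5191 genes called higher, 2994 had a still higher mean TPM in the differentiation zone, 1891 lay between the other zones and 302 below both. Of the 5113 genes called lower, 3503 lay between the other zones, 1201 were below both and 397 above both. Xyloglucan endotransglucosylases peaked in the elongation zone for 9 of 13 tested members: SlXTH9 (LOC101261784) had 61.0 ± 12.5 TPM in the meristem, 1215 ± 344 in the elongation zone and 111 ± 50.8 in the differentiation zone (SD, n = 3 each). The expansin gene EXPA8 had 28.96 ± 4.87, 120.4 ± 15.5 and 0.863 ± 0.232 TPM along the same order of zones, and the invertase gene lin9 had 49.2 ± 16.4, 222 ± 37.3 and 0.98 ± 0.255 TPM. Both were near 1 TPM in the differentiation zone, below their meristem levels.

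Ethylene genes instead had their highest mean in the differentiation zone for 24 of 28 tested members. The phosphate transporter PT1 was higher in each successive zone, with 90.8 ± 20.2, 308 ± 53.4 and 705 ± 57.9 TPM from meristem to differentiation zone. PAL2 had 13.7 ± 6.18, 952 ± 81.9 and 808 ± 45.6 TPM and SlTIP2-2 had 152 ± 25.7, 7451 ± 1063 and 4756 ± 1565 TPM, so that both stayed far above the meristem in the differentiation zone. Of the 12 cell cycle genes that were lower in the elongation zone than in the meristem, 10 had a higher mean in the differentiation zone than in the elongation zone. cdkB2 had 132 ± 30.6, 5.60 ± 1.45 and 34.4 ± 5.82 TPM in the 3 zones. The histone gene HTA6 did not share this, at 1709 ± 90.4, 396 ± 54.1 and 165 ± 26.5 TPM.

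**Figure D5:**
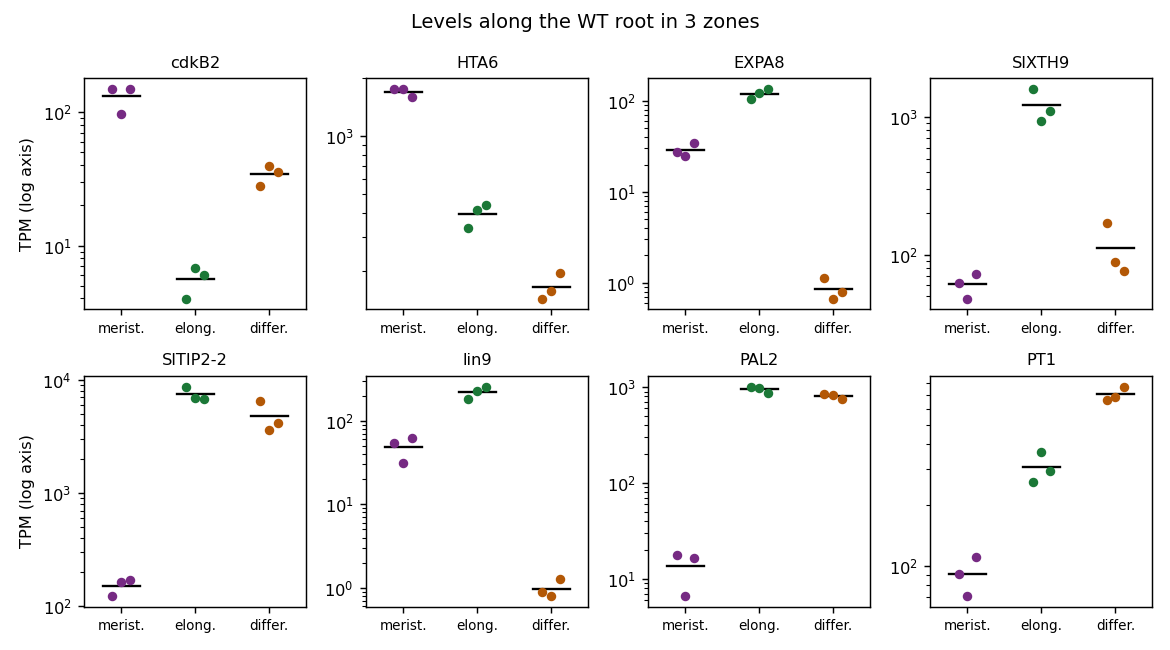
TPM (vertical log axis) of 8 genes in the WT meristem, elongation zone and differentiation zone; each point is 1 of 3 libraries and bars are means. cdkB2 is lowest in the elongation zone, EXPA8, SlXTH9 and lin9 are highest there, and PT1 is highest in the differentiation zone.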

How the data were processed

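RNA was sequenced from WT and dgt1-1 root zones with 3 biological replicates per zone and genotype, as the labels state, so p-values measure the spread between pooled root portions. Per the labels, reads were called with CASAVA 1.8.2 and quantified with RSEM. The authors aligned 51-base single-end reads to transcripts taken from the NCBI tomato genome and deposited expected counts per gene, which are estimates and need not be whole. The authors also deposited TPM, transcript levels scaled for effective length and depth. RSEM divides reads that match several genes: 294 of 303 list members tested and 119 of 120 named genes had an expected count further than 0.01 from a whole number in at least 1 of the 6 libraries, so levels of close relatives are uncertain. Isoform estimates, and zone tables holding EBSeq posterior probabilities and fold changes of dgt against WT, were not used.

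Rounded expected counts entered edgeR 4.0.16 (R 4.3.3), with a minimum count of 10 and a total of 15 in filterByExpr, TMM scaling, prior count 0.125, the quasi-likelihood test and Benjamini-Hochberg adjustment over all genes tested. The fit used the 6 libraries of the comparison without a replicate term. dgt was fitted likewise, and the difference of the steps as an interaction over 12 libraries. Normalized counts are TMM-scaled to the mean library size. On simulated data for 18764 genes, 79 of 98 genes planted with a log2 change of 1.5 and 98 of 98 with 3 were called, and 6 of 183 calls carried no planted change. The simulation changed few genes, in both directions alike, and used a single dispersion and no trend with transcript length. In the real libraries 52.4% of genes were called and meristem replicate 2 had a length trend, so these rates cannot be carried over to them. Depth was 17919441 to 29133603 counts per library. A zone at or under 3 counts in all libraries gives a fold only as a lower bound against that floor, which covers counting error only.

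Genes were named by rule: among called genes whose zones did not overlap, with a mean of at least 50 normalized counts in the higher zone, the 8 largest rises and falls with a symbol, the 3 largest of each with a LOC identifier, the 5 largest of each in TPM, up to 4 list members by highest count, up to 3 genes in each direction at the floor of 1 zone, and the 3 smallest interaction p-values. List members beyond the rule, including all that were not called, were chosen after their values were seen, as marked for those singled out. The members and lists were chosen with earlier results of these data known. Names came from the files and from the RefSeq table of assembly SLM_r2.1, in which 24925 of 29922 genes matched by transcript accession, 2008 by symbol, 1 by synonym and 2930 not at all, while 58 were ambiguous. Related proteins and promoter motifs are not analysed here, and some genes that the rule would name are not reported here. Alternatives were DESeq2 1.42.0, 3 other scalings, 2 other filters, a replicate block, fits over 9 and 18 libraries, limma 3.58.1 on log2(TPM + 1), other TPM thresholds, and each library left out in turn. Summaries and plots used Python 3.11.15, scipy 1.17.1 and matplotlib 3.10.9.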

Additional observations from a re-analysis of the deposited data

Results flagged for a closer look

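The step from meristem to elongation zone differed between dgt and WT, by the interaction test, for 2474 genes, among them the following named genes. Differences are log2 values of the dgt step minus the WT step, and every one had an adjusted p under 0.05 in edgeR's quasi-likelihood test.

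Wall and water genes differed in both directions. LOC543637 (BR1), a xyloglucan endotransglucosylase, and the beta-galactosidase gene tEG3 both differed by -2.27, and the gene named aquaporin by -1.02. The endoglucanase gene cel7 differed by -1.25, and there the fall was deeper in dgt. The expansins EXPA6 and exp18, which fell in WT, differed by 1.11 and 2.39, and the pyrophosphatase gene SlVP2 by 0.89.

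Of the division genes, cdkB2 differed by 1.62, cdc20-1 by 1.55 and LOC101248926 (CYCB1-2) by 0.96. Each fell in both genotypes and by less in dgt, with steps of -3.19, -3.30 and -3.94 there.

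Among hormone genes, ARF5 differed by 3.31, SlIAA27 by -1.38 and the GH3 gene LOC101268624 by -1.38. SlIPT2 of cytokinin synthesis differed by -1.73, the gibberellin genes GID1 and GA2ox3 by -0.91 and -1.56, the ACC oxidase gene ACO4-like by -2.42 and DDTFR10/A by -1.18.

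WT rises that were smaller in dgt included those of SN2 (-2.99), Dif54 (-1.25), CCR1 (-2.35), THT7-8 (-1.84), THT1-3 (-5.16) and the sulfate transporter gene ST1 (-1.57). The same held for LOC101249612 (-5.62), LOC101251913 (-4.71), LOC109121038 (-5.89), LOC101261698 (-5.10), LOC101261998 (-5.58), and for AADC2 (-5.58) and LOC101266404 (-5.95). Both of these last genes were at or under 3 counts in the WT meristem, so their fitted differences depend on the prior count. A smaller step need not mean a lower level in the dgt elongation zone. THT7-8 was at 54.5 TPM in the dgt and 59.6 TPM in the WT elongation zone, and at 1.14 and 0.35 TPM in the meristems. Choosing genes by their WT rise also favours a larger WT step.

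Photosynthesis genes differed above 0: CAB4 by 1.88, LOC543978 by 1.67 and CAB-10A by 1.04. In each of them replicate 2 was the highest WT meristem library. The catalase gene cat1 differed by 6.18, with a step of 1.18 in dgt and -4.74 in WT, and WT meristem libraries at 117, 1499.7 and 625 normalized counts. LOC101254980 had a fitted difference of 9.41, which also depends on the prior count because all WT elongation zone libraries were at 0.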

How the results depend on the processing

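With DESeq2, other scalings, other filters, other sample sets, a replicate block or limma on TPM, genes higher in the WT elongation zone numbered 4286 to 5592 and genes lower 3974 to 5926, beside 5191 and 5113. Upper quartile scaling moved the median of all genes by about -0.17 on the log2 scale, to 4721 higher and 5812 lower. None of the named genes reversed; 111 of 120 kept their call under all 16 alternatives, and 30 of 1919 values lost it. Of 1088 list counts, groups formed later included, 53 moved by more than 1.5 times. Leaving out each library gave 4999 to 5308 genes higher, 5047 to 5473 lower, 11614 to 14680 changed at any fold and a difference of -39.5 to 700.2 expressed genes, and in dgt 5460 to 5592 higher, 5654 to 5894 lower and 8215 to 8348 shared calls. The interaction count ranged from 1587 to 6680 beside 2474, the extremes lying without dgt meristem replicate 3 and without WT meristem replicate 2, and the cause was not tested.

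The labels do not say whether same-numbered samples were collected together. Deviations of same-numbered elongation zone and meristem libraries correlated at -0.31, -0.34 and 0.08. Elongation zone replicate 1 and meristem replicate 2, which share a trend with transcript length, correlated at 0.42. With that trend present, these correlations cannot show whether the samples were paired. With the replicate number as a block, 5148 genes were higher, 4893 lower and 11547 changed at any fold, and the interaction count was 1245. Members under the low-count filter could not be tested at this depth.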

Other observations

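Several gene groups outside the lists were put together after their values were seen, so their counts only describe these libraries, beside 26.4% higher and 26.0% lower over all genes tested. All 9 ribosomal protein genes found by symbol were lower in the elongation zone, with a median log2 fold change of -1.81, and all 9 were also called lower in dgt. Over all genes with transcripts under 1000 bases the median log2 fold change was -0.31 in WT and -0.69 in dgt. The part of transcript length in the values of these genes was not tested. RPL3, a protein of the large subunit, had 10863, 6758 and 8335 normalized counts in the elongation zone libraries, against 46941, 82391 and 46543 in the meristem libraries (-2.76 ± 0.34, SE, adjusted p = 0.00016 in edgeR's quasi-likelihood test). The gene eIF-5A3, a translation factor of the eIF-5A family, had 4363, 2608 and 3347 in elongation zone libraries and 17408, 22956 and 13926 in meristem libraries (-2.40 ± 0.29, SE, adjusted p = 0.00014), whereas its relative eIF-5A4 had 14636, 11490.2 and 12331 in elongation zone libraries and 12340.5, 16763 and 10376 in meristem libraries, with overlapping zones. The chaperone gene Hsp90-1 had 7685, 5445 and 5944 in elongation zone libraries and 35198, 52858 and 36777 in meristem libraries (-2.71 ± 0.28, SE, adjusted p = 5.9e-05), and with HSC80 it made up the 2 called among 12 tested heat shock genes, a smaller share than among all genes. Without elongation zone replicate 2 or any 1 meristem library, 1 heat shock gene was called higher.

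Steroidal alkaloid genes (GAME) were lower in 5 of 7 tested members, with a median of -3.24. GAME1, a glycosyltransferase of alpha-tomatine synthesis, had 1925, 1563 and 1608 normalized counts in the elongation zone libraries, against 15404, 19219 and 13525 in the meristem libraries (-3.24 ± 0.23, SE, adjusted p = 9.3e-06). GAME3 alone was called higher (1.39 ± 0.42, SE, adjusted p = 0.018), and it lost that call when any single library other than meristem replicate 2 was left out. In contrast, all 4 tyramine hydroxycinnamoyltransferase genes rose, and 4 of 5 polyphenol oxidase genes did so. PPO, an oxidase of phenolic compounds, had 39187, 18405 and 24309 in elongation zone libraries and 324, 419.9 and 324 in meristem libraries (6.26 ± 0.38, SE, adjusted p = 5.1e-06), while LOC606710 of the same family was abundant in both zones, with 20646, 12740.5 and 18153 in elongation zone libraries and 22367, 24038 and 20642 in meristem libraries.

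Of 19 tested gene silencing and DNA methylation genes 6 were lower in the elongation zone and 1 was higher, LOC101247032 (AGO1A). AGO4B, an Argonaute protein gene, had 106, 179 and 180.0 normalized counts in the elongation zone libraries, against 2637, 352 and 2152 in the meristem libraries (-3.46 ± 0.67, SE, adjusted p = 0.0021). Without meristem replicate 2, the lowest meristem library for most of the group, 10 were lower, and without meristem replicate 1, 2 were higher. TCP factors, which influence cell growth and division, were higher in 8 of 12 tested members, led by TCP14 with 2889.7, 2152 and 2154 in elongation zone libraries and 104, 91.0 and 121 in meristem libraries (4.51 ± 0.23, SE, adjusted p = 2.5e-06). TCP19 (-2.04) and TCP21 (-2.71) were lower, and 4 members were lower with no filter on low counts. MKK3, a MAP kinase kinase, had 60.3, 56.9 and 90.5 in elongation zone libraries and 870.0, 778 and 757 in meristem libraries (-3.53 ± 0.23, SE, adjusted p = 7.3e-06) and was the 1 member of its group that fell, while 6 of 17 rose.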
